A study of Homo sapiens with 16 samples.

Results

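The small-subunit ribosomal protein genes were followed as a set of 28 listed genes, of which 26 had a probe among the 10163 genes tested. Their members were taken by gene symbol from the array annotation. The 26 genes had 44 probes, all 44 of which were kept by the detection filter and were detected on all 16 arrays. RPSA, which is also known as the laminin receptor, and RPS27A, which encodes a ubiquitin fusion protein, were not analysed here, and probes for pseudogenes were kept apart. The RNA came from MM1.S, an established human multiple myeloma cell line, at 4 h with 1 uM dexamethasone, a synthetic glucocorticoid, and at 0 h. At each time, 3 pools (C, B and A) of RNA from polysomes fractionated in sucrose and 1 preparation of total RNA were hybridized to Illumina bead arrays, with 2 arrays in each of the 8 groups. The cells of all groups were grown in log phase in medium with serum. Nothing in the labels says that the 2 arrays of a group came from separate cultures, so p-values measure the spread between arrays, which may be technical. What part of the sucrose gradient went into a pool is not stated in the labels. Columns of the intensity table start with N or X, 1 of each per group, and values of a group are given with the N array first.

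Each ribosome is made of a large and a small subunit, and the small one binds the mRNA and holds the decoding centre where codons meet transfer RNAs. Its proteins are needed in equal numbers, and in mammals their mRNAs share a 5′ terminal oligopyrimidine (TOP) tract, a cytosine at the cap followed by a run of pyrimidines. TOP mRNAs are known to move between translating polysomes and a repressed, ribosome-free form under the kinase complex mTORC1 and the RNA-binding protein LARP1. Plasma cells and myeloma cells secrete large amounts of antibody and depend on a high supply of ribosomes.

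A TOP tract was sought as C followed by at least 4 bases of C or T, on the strand of the gene. It had to begin at an annotated start of the gene in the RefSeq promoter table (GRCh38.p14). Where a gene had several entries, a tract at any of them counted. The tract was found at the start in 19 of the 25 listed members with an entry (76%), against 5.14% of all 27305 genes in that table. Within 5 bases of the start, a tract of the same minimum length was found for 21 of the 25 members (84%) and for 25.2% of all genes. The windows below span 10 bases before the start and 20 bases from it, so that the start is the eleventh base, and capitals mark the tract from its first C within 5 bases of the start, so that a longer run of pyrimidines may go on before them in lower case. The first 5 show the tract across members that behave differently in the pools, the next 2 carry a tract only beside the start, and the last 3 have no match within 5 bases of the start.
RPS6: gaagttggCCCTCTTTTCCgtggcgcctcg
RPS12: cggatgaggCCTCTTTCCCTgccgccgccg
RPS3: cgagccaCTTCCTTTCCTTTCagcggagcg
RPS21: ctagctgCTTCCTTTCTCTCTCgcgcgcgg
FAU: tcgcttCTTCCTCTTTCTCgactccatctt
RPS7: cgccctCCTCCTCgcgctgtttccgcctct
RPS28: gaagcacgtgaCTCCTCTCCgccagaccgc
RPS26: acataacctcgattttcttccgccatccgg
RPS29: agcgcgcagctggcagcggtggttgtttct
RPS4X: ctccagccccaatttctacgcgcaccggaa
The windows lie at chr9:19380217-19380246 (RPS6, minus strand), chr6:132814559-132814588 (RPS12, plus strand), chr11:75399508-75399537 (RPS3, plus strand) and chr20:62387093-62387122 (RPS21, plus strand). FAU lies at chr11:65122115-65122144 (minus strand), RPS7 at chr2:3575250-3575279 (plus strand) and RPS28 at chr19:8321486-8321515 (plus strand). The last 3 are chr12:56041908-56041937 (RPS26, plus strand), chr14:49598691-49598720 (RPS29, minus strand) and chrX:72277229-72277258 (RPS4X, minus strand). Each window holds the end of the promoter and the first bases of the first exon. A match describes these letters only, and a missing match says nothing about the tract of an mRNA that starts at another base.

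Each array detected 26.11% to 31.3% of the 47323 probes, median intensities lay between 129.4 and 176.6, and the 2 arrays of a group correlated across genes at 0.9659 to 0.9906. All 8 plasma cell markers were detected on all 16 arrays. Of 14 markers of other cells, 12 had a probe and 10 of these were detected on no array. The exceptions were HBB, detected on 16 arrays, and FCGR3A, detected on 5. TSC22D3, a classical glucocorticoid target, had log2 levels of 12.52 to 14.24 on the 4 h arrays, against 10.00 to 10.42 on the untreated N arrays and 11.74 to 12.80 on the untreated X arrays. Within each kind of RNA the untreated X array lay between the untreated N array and both treated arrays, as in total RNA, with 13.29 and 13.43 at 4 h, against 10.00 (N) and 12.38 (X) at 0 h. Member counts between the kinds of RNA, and member medians for dexamethasone, are therefore also given without those 4 untreated X arrays.

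The members lay near the top of the intensity scale. Over the 16 arrays, the median member stood at the 98.95th to 99.48th percentile of all genes on its array. Of the 26 members, 20 had a median intensity over 50% of the brightest probe on the array, a bound chosen after their values were seen. RPS12 had a median of 86.4% of the array maximum, whereas RPS23, a protein of the decoding centre, had 2.7% and RPS7, a protein known to bind the p53 regulator MDM2, had 8.8%. These percentages describe the position of a probe on the scanner's scale and not the abundance of an mRNA. In RNA from many cells, fewer cells with an mRNA and less of it per cell cannot be told apart.

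Dexamethasone for 4 h changed none of the 26 members past the threshold in any kind of RNA (limma, Benjamini-Hochberg adjusted p under 0.05). The share of all 10163 genes past the threshold was 0.108% in total RNA, 0.876% in pool A, 0.0295% in pool B and 0.0689% in pool C. At an unadjusted p under 0.05 the members counted 0 in total RNA, 1 in pool A, 0 in pool B and 0 in pool C, beside 4.56%, 13%, 6.7% and 5.93% of all genes in that order. The median log2 difference of the members, 4 h minus 0 h, was -0.0054 in total RNA, 0.05 in pool A, 0.06 in pool B and -0.05 in pool C, beside 0.0022, 0.04, -0.0079 and 0.0081 for all genes. The sign of these medians depended on the scaling. Cyclic loess gave -0.21 in pool A (22 of 26 members below 0). Median scaling gave -0.09 in pool A, -0.09 in pool B and 0.02 in pool C, beside 0.22, -0.12 and 0.05 over all genes. With that scaling the members' median thus lay below that of all genes in pools A and C and above it in pool B. Leaving out the 4 untreated X arrays was an alternative chosen after seeing the data. It gave member medians of 0.0007, -0.0036, 0.03 and -0.14 in the same order.

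RPS6, the substrate of S6 kinase and the usual readout of mTORC1 signalling, had log2 levels of 14.09 and 14.11 in total RNA at 4 h, against 14.07 and 14.22 at 0 h. The same gene in pool A had 14.06 and 14.48 at 4 h, against 13.87 and 14.66 at 0 h. The N arrays were the lower ones at both times there, and the times overlapped. RPS3, which lines the entry of the mRNA channel, had 14.14 and 13.83 in total RNA at 4 h, against 14.12 and 13.87 at 0 h. In total RNA the differences of all 26 members lay between -0.13 (RPS26) and 0.21 (RPS2), and their 95% intervals reached from -0.80 to 0.72.

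In the pools the differences spread more widely and still missed the threshold. RPS24, a gene mutated in Diamond-Blackfan anaemia, had 13.74 and 13.85 in pool A at 4 h, against 14.26 and 14.22 at 0 h. Its log2 difference was -0.45 ± 0.17 (SE), with an unadjusted p of 0.0234 and an adjusted p of 0.296 (limma), and its treated and untreated arrays did not overlap. RPS23 had 10.27 and 10.43 in pool A at 4 h, against 9.56 and 10.16 at 0 h, a difference of 0.49 ± 0.23 with an adjusted p of 0.398 (limma). In the authors' deposited table of values, with the replicate number as a block, the difference of RPS23 in pool A was 0.76 with an adjusted p of 0.0103 (limma), the only member and setting past the threshold for dexamethasone.

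RPS2, a protein near the mRNA entry site that is methylated by PRMT3, had 12.17 and 11.87 in pool C at 4 h, against 12.31 and 12.66 at 0 h. Its difference was -0.47 ± 0.23 (adjusted p = 0.864, limma), the lowest of the 26 in pool C, and its treated arrays both lay below the untreated ones. FAU, which encodes a ubiquitin-like protein fused to a ribosomal protein, had the highest value there, 0.26 ± 0.20. In pool B the members lay between -0.31 (RPS28) and 0.21 (RPS7). The difference between the responses, pool C minus pool A, was past the threshold for 0 of the 26 members and for 0% of all genes, with 0 members and 585 genes (5.76%) at an unadjusted p under 0.05 (limma). Its median over the members was -0.12, beside -0.04 over all genes, and the members ranged from -0.68 (RPS2) to 0.40 (RPS24). That median turned to 0.25 with cyclic loess and to 0.14 with median scaling, beside -0.02 and -0.19 over all genes.

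**Figure D1:**
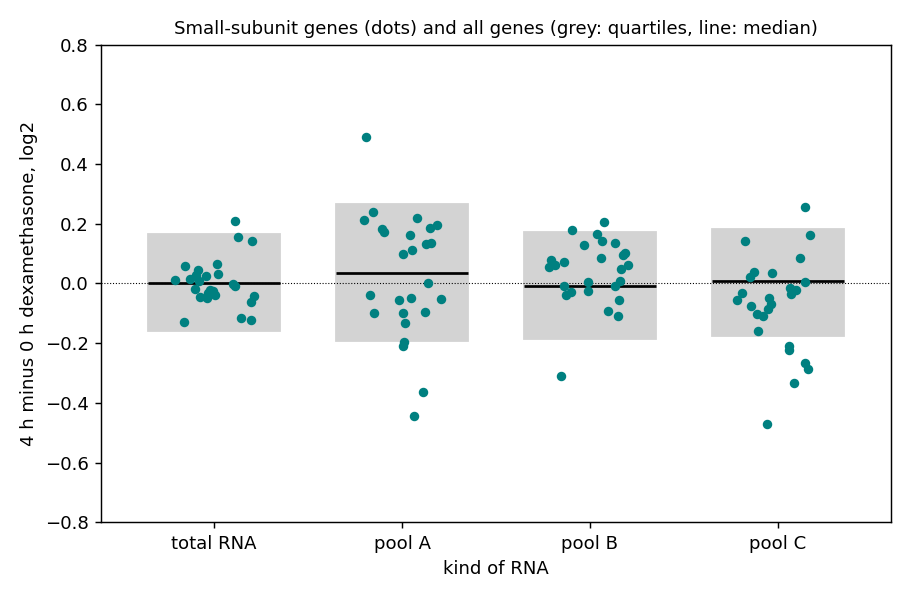
Log2 difference between 4 h and 0 h with dexamethasone (vertical axis) for the 26 small-subunit genes (dots), by kind of RNA. Grey boxes are the quartiles of all 10163 genes and black lines their medians. The dots lie between -0.13 and 0.21 in total RNA and between -0.45 and 0.49 in pool A.

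The pools differed from each other far more than the times did. Between pool C and pool A, averaged over both times, 11 of the 26 members passed the threshold, 2 higher and 9 lower in pool C (limma, adjusted p under 0.05). Of all genes, 67.9% passed, 41.1% higher and 26.7% lower, so that the members' calls leaned to lower values where those of all genes leaned to higher ones. The median difference of the members was -0.06, beside 0.23 over all genes. Lower in pool C were RPS21, RPS2, RPS23, RPS26, RPS28, RPS4X, RPS18, RPS29 and RPS20, and higher were RPS7 and, under quantile normalization only, FAU. For 8 of the members every pool C array lay below every pool A array, and for 1 member, RPS7, every pool C array lay above. Of all genes, 22.4% lay below on every array and 34.4% above.

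RPS21, one of the smallest proteins of the subunit, had log2 levels of 11.07 and 10.50 at 4 h and 11.71 and 10.52 at 0 h in pool C. In pool A it had 12.91 and 12.92 at 4 h and 13.17 and 12.78 at 0 h. All pool C arrays were lower, and RPS21 was 4.0-fold lower, a log2 difference of -2.0 ± 0.25 (SE, adjusted p = 9.015e-06, limma, n = 4 arrays each). RPS2 had 12.17 and 11.87 at 4 h and 12.31 and 12.66 at 0 h in pool C, against 14.17 and 14.16 at 4 h and 13.91 and 13.99 at 0 h in pool A. The groups of RPS2 were well apart and the gene was 3.50-fold lower in pool C (-1.81 ± 0.16, adjusted p = 4.188e-07, limma). At 4 h alone its difference was -2.15 ± 0.23, and at 0 h it was -1.47 ± 0.23.

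RPS26 and RPS28 both lie near the exit of the mRNA channel. RPS26 had 11.64 and 11.58 at 4 h and 11.996 and 11.54 at 0 h in pool C, against 13.15 and 13.14 at 4 h and 13.02 and 12.95 at 0 h in pool A. Its pool C arrays all lay lower, by 1.38 ± 0.14 log2 units (2.60-fold, adjusted p = 1.635e-06, limma). RPS28 had 13.23 and 13.17 at 4 h and 13.52 and 12.59 at 0 h in pool C, against 14.27 and 14.14 at 4 h and 14.03 and 14.02 at 0 h in pool A. It was 1.98-fold lower in pool C (-0.99 ± 0.18, adjusted p = 2.153e-04, limma), and its untreated X array stood lowest.

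RPS23 had 8.65 and 8.71 at 4 h and 8.80 and 8.72 at 0 h in pool C, against 10.27 and 10.43 at 4 h and 9.56 and 10.16 at 0 h in pool A. The pool C arrays kept within a narrow range below the pool A arrays, and the difference was -1.39 ± 0.16 (2.62-fold lower, adjusted p = 5.530e-06, limma). Median scaling took this call away (-0.08, adjusted p = 0.720). RPS29, a zinc-binding protein of the subunit's head, had 13.53 and 13.81 at 4 h and 13.95 and 13.83 at 0 h in pool C, against 14.50 and 14.28 at 4 h and 14.52 and 14.45 at 0 h in pool A. The difference of its brightest probe was -0.66 ± 0.13 (adjusted p = 4.166e-04, limma), with no overlap.

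RPS4X, the X-encoded copy of its protein, had 13.64 and 13.92 at 4 h and 13.94 and 13.65 at 0 h in pool C, against 14.59 and 14.65 at 4 h and 14.15 and 14.60 at 0 h in pool A. RPS18, a protein of the subunit's head, had 13.59 and 13.43 at 4 h and 13.83 and 13.73 at 0 h in pool C, against 14.54 and 14.05 at 4 h and 14.34 and 14.35 at 0 h in pool A. Both genes were lower on each pool C array, by 0.71 ± 0.15 for RPS4X (adjusted p = 0.0011) and by 0.67 ± 0.14 for RPS18 (adjusted p = 6.136e-04, limma). RPS20, another head protein, had a difference of -0.32 ± 0.13 (adjusted p = 0.0442, limma) with overlapping arrays. Its call was lost in 7 of the 8 fits that left out 1 array, all but the one without the untreated N array of pool C, with values of -0.36 to -0.21 and adjusted p of 0.051 to 0.189. Without the 4 untreated X arrays it was -0.20 (adjusted p = 0.290).

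RPS7 ran the other way. It had 12.32 and 12.08 at 4 h and 12.70 and 12.27 at 0 h in pool C, against 10.19 and 10.62 at 4 h and 9.97 and 10.40 at 0 h in pool A. Every pool C array was higher, and RPS7 rose 4.15-fold (2.05 ± 0.19, adjusted p = 5.352e-07, limma). FAU had 14.51 and 14.62 at 4 h and 14.34 and 14.28 at 0 h in pool C, against 13.85 and 14.01 at 4 h and 13.81 and 14.31 at 0 h in pool A. Its arrays overlapped, and its difference of 0.44 ± 0.14 (adjusted p = 0.0118, limma) turned to -0.06 with cyclic loess and to -0.08 in the authors' deposited table. A fit without the N array of pool A at 0 h also ended the FAU call (0.32, adjusted p = 0.0589).

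The 15 members not past the threshold lay between -0.15 (RPS13) and 0.25 (RPS19), and their 95% intervals reached from -0.51 to 0.53. Among them, RPS6 had a difference of -0.14 ± 0.17, RPS3 of 0.07 ± 0.14, RPS27 of -0.0056 ± 0.14 and RPS12 of -0.07 ± 0.13. Across the 26 members, the difference at 4 h and the difference at 0 h, which share no array, had Pearson's r = 0.949 and Spearman's rho = 0.846, and 19 members had the same sign. The members share the arrays and their scaling, so this is a description of how alike the times were.

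The split between higher and lower calls depended on how arrays were scaled to each other. Cyclic loess gave 1 higher and 21 lower members, with a median of -0.51 beside 0.04 over all genes, of which 34% were higher and 32% lower. The authors' deposited table gave 1 higher and 22 lower, with -0.49 beside 0.24 over all genes (46.3% higher and 19.4% lower). Median scaling gave 1 higher and 8 lower, with -0.19 beside 1.07 over all genes (68% higher and 12.3% lower). Relative to the median of all genes, the members' median lay at -0.29 with quantile normalization, -0.55 with cyclic loess, -0.73 in the authors' deposited table and -1.26 with median scaling. In all 4 scalings, 8 members (RPS2, RPS4X, RPS18, RPS20, RPS21, RPS26, RPS28 and RPS29) were called lower and 1, RPS7, higher.

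**Figure D2:**
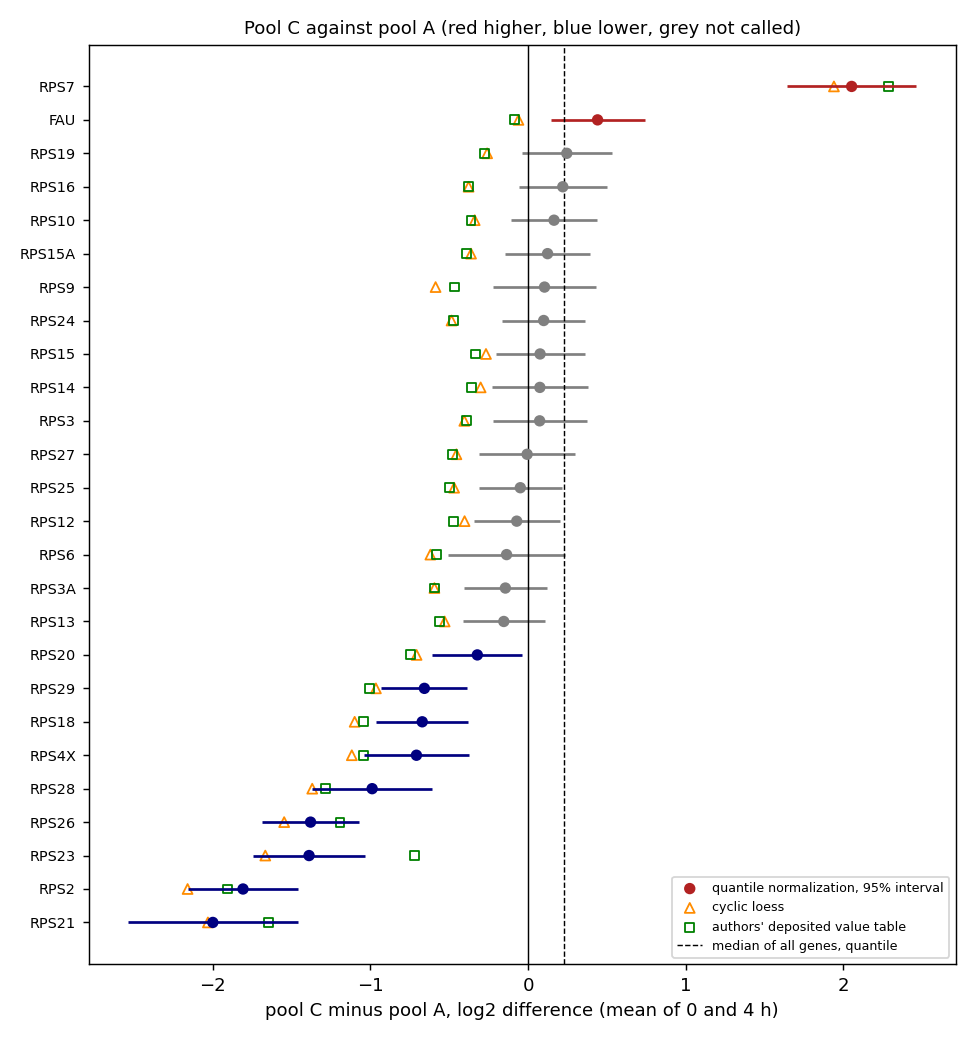
Log2 difference of pool C minus pool A, averaged over 0 and 4 h, for each of the 26 members. Circles with 95% intervals are the quantile-normalized values (red higher, blue lower, grey not called), triangles are cyclic loess and squares the authors' deposited table, and the dashed line is the median of all genes, 0.23. The triangles and squares of the grey members all lie left of their circles, while RPS7 stays right of 0 and RPS21, RPS2, RPS26, RPS28, RPS4X, RPS18, RPS29 and RPS20 stay left of 0 in all 3.

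Brightness moved with the size of these differences. Among the 20 members whose median intensity was over 50% of the array maximum, 1 was called higher and 5 lower in pool C against pool A, with a median absolute difference of 0.15. Among the other 6 (RPS23, RPS7, RPS21, RPS26, RPS2 and RPS9), 1 was called higher and 4 lower, with a median absolute difference of 1.60. Of all genes, at any brightness, 41.1% were higher and 26.7% lower, and shares of all genes by brightness were not counted. The part of brightness in these differences was not tested. The summed signal of the other-cell markers also differed between these pools, though only HBB and FCGR3A were detected on any array. The summed normalized intensity of the 12 with a probe was 409 to 553.9 in pool C, against 855 to 1359 in pool A, with 10 of the 12 on no array, and HBB and FCGR3A differed by -2.49 and -1.69. Their part in the members' differences was not tested.

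Pool C was next set against total RNA, with which pool A and pool B were also compared, so the comparisons with total RNA share its 4 arrays. Of the 26 members, 2 were higher and 7 lower in pool C (limma), beside 24.4% higher and 22.8% lower of all genes and 47.3% in all. RPS21 had 11.07 and 10.50 at 4 h and 11.71 and 10.52 at 0 h in pool C, against 12.33 and 12.20 at 4 h and 12.66 and 11.95 at 0 h in total RNA. It was lower on every pool C array (-1.34 ± 0.25, adjusted p = 7.629e-04, limma). RPS29 (-0.84 ± 0.13), RPS28 (-0.82 ± 0.18), RPS2 (-0.65 ± 0.16), RPS26 (-0.56 ± 0.14), RPS18 (-0.43 ± 0.14) and RPS20 (-0.38 ± 0.13) were lower as well, except that RPS26 stood at 0.0040 with median scaling. RPS2 (-0.17) and RPS26 (-0.08) were also not called in the authors' deposited table. Median scaling ended the calls of RPS2 (-0.12) and RPS18 (-0.30), and cyclic loess that of RPS26 (-0.36, adjusted p = 0.0511). Leaving out 1 array ended the call of RPS18 in 4 of 8 fits, all without an X array, and that of RPS20 in 7 of 8, all but the one without the untreated N array of pool C.

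RPS7 was higher in pool C than in total RNA, where it had 11.81 and 11.47 at 4 h and 11.85 and 11.14 at 0 h (0.78 ± 0.19, adjusted p = 0.00444, limma). RPS3 had 14.34 and 14.36 at 4 h and 14.54 and 14.34 at 0 h in pool C, above all 4 arrays of total RNA. Its difference of 0.40 ± 0.14 (adjusted p = 0.0276, limma) lost the call with cyclic loess (0.27, adjusted p = 0.107) and in 5 of 8 fits without 1 array, namely the N array of either pool C group, the X array of pool C at 4 h and the X array of either total RNA group. For pool C against total RNA, cyclic loess gave 1 higher and 14 lower members, beside 20.4% and 28.8% of all genes. The authors' deposited table gave 2 and 6, beside 32.5% and 15.3%, and median scaling 2 and 5, beside 40.3% and 16.2%. The 17 members not called lay between -0.24 and 0.23.

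In pool A against total RNA, 5 members were higher and 3 lower (limma), beside 24.5% higher and 37% lower of all genes and 61.6% in all. RPS23 had 10.27 and 10.43 at 4 h and 9.56 and 10.16 at 0 h in pool A, against 8.63 and 9.04 at 4 h and 8.59 and 8.76 at 0 h in total RNA. The gene was 2.55-fold higher on arrays that did not overlap (1.35 ± 0.16, adjusted p = 1.234e-05, limma), although median scaling left 0.41 (adjusted p = 0.0713). RPS2 had 14.17 and 14.16 at 4 h and 13.91 and 13.99 at 0 h in pool A, against 13.03 and 12.97 at 4 h and 12.64 and 12.95 at 0 h in total RNA, 2.23-fold higher (1.16 ± 0.16, adjusted p = 4.036e-05, limma). RPS26 (0.82 ± 0.14), RPS21 (0.66 ± 0.25) and RPS4X (0.50 ± 0.15) were higher too.

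RPS7 fell 2.42-fold in pool A against total RNA (-1.28 ± 0.19, adjusted p = 6.502e-05, limma), so that its levels in pool C and pool A lay on either side of total RNA. RPS16 (-0.36 ± 0.13) and RPS10 (-0.33 ± 0.13), a gene mutated in Diamond-Blackfan anaemia, were also lower in pool A, but their signs turned to 0.14 and 0.10 in the authors' deposited table. The split of 5 higher and 3 lower became 11 and 1 with cyclic loess (26.3% and 33.3% of all genes), 12 and 1 in the authors' deposited table (20.4% and 35.2%) and 8 and 1 with median scaling (9.43% and 60.7%). The median of all genes was -0.17 with quantile normalization and -0.74 with median scaling. Without the N array of pool A at 4 h or the X array of total RNA at 4 h, the number of members called was 5. The call of RPS10 was lost in 7 of the 8 fits without 1 array, all but the one without the untreated N array of pool A. That of RPS21 was lost in 6, all but those without the untreated N array of total RNA or the untreated X array of pool A. That of RPS16 was lost in 5, all but those without the untreated N array or the 4 h X array of pool A or the untreated X array of total RNA, and that of RPS4X in 1, without the untreated X array of pool A (0.39, adjusted p = 0.0551).

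Pool B had the fewest members called against total RNA, with 4 members higher and 0 lower (limma), beside 24.6% higher and 34.2% lower of all genes and 58.8% in all. RPS21 had 13.23 and 13.01 at 4 h and 13.46 and 13.01 at 0 h in pool B, above all arrays of total RNA (0.89 ± 0.25, adjusted p = 0.00734, limma). RPS23 (0.66 ± 0.16), RPS26 (0.62 ± 0.14) and RPS3 (0.43 ± 0.14) were higher as well. The RPS23 call was absent with median scaling (0.13) and in the authors' deposited table (0.04), and the RPS3 call without the X array of total RNA at 4 h or at 0 h (0.36 and 0.37). Median scaling and the authors' deposited table each gave 4 higher and 1 lower, beside 15.1% and 48.6% of all genes in the one and 13.5% and 41.1% in the other. The lowest members were RPS7 (-0.41), RPS16 (-0.19) and RPS15 (-0.18), with no call.

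Setting pool B against pool A gave 23% of all genes higher and 18.9% lower, 42% in all (limma). The members split into 2 higher (RPS7 by 0.87 ± 0.19, FAU by 0.51 ± 0.14) and 3 lower (RPS2 by 0.89 ± 0.16, RPS23 by 0.69 ± 0.16, RPS4X by 0.66 ± 0.15). The split became 1 higher and 6 lower with cyclic loess (17.9% and 20.6% of all genes), 1 and 10 in the authors' deposited table (9.11% and 21.4%) and 2 and 2 with median scaling (33.8% and 9.25%). RPS23 was not called there with median scaling (-0.29). FAU was not called there with cyclic loess (0.18) or in the authors' deposited table (0.09). Pool C against pool B gave 1 higher, RPS7 by 1.19 ± 0.19, and 8 lower, beside 34.3% higher and 24.6% lower of all genes and 58.9% in all. RPS21 led the lower ones with 4.69-fold (-2.23 ± 0.25), followed by RPS26 (-1.18 ± 0.14), RPS28 (-1.13 ± 0.18), RPS2 (-0.92 ± 0.16), RPS29 (-0.79 ± 0.13), RPS23 (-0.70 ± 0.16), RPS20 (-0.50 ± 0.13) and RPS18 (-0.48 ± 0.14). RPS23 alone of these 8 had a positive value in another scaling, 0.21 with median scaling and 0.07 in the authors' deposited table.

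Without the 4 untreated X arrays, 2 members were higher and 8 lower in pool C against pool A, beside 37.1% and 24.9% of all genes. The refit gave 1 higher and 7 lower in pool C against pool B (30% and 21.8% of all genes), and 2 and 3 in pool B against pool A (18.1% and 15.1%). Against total RNA it gave 1 and 5 in pool C (19.2% and 19.8%), 3 and 1 in pool B (21% and 29.1%), and 4 and 2 in pool A (21.8% and 32.7%).

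**Figure D3:**
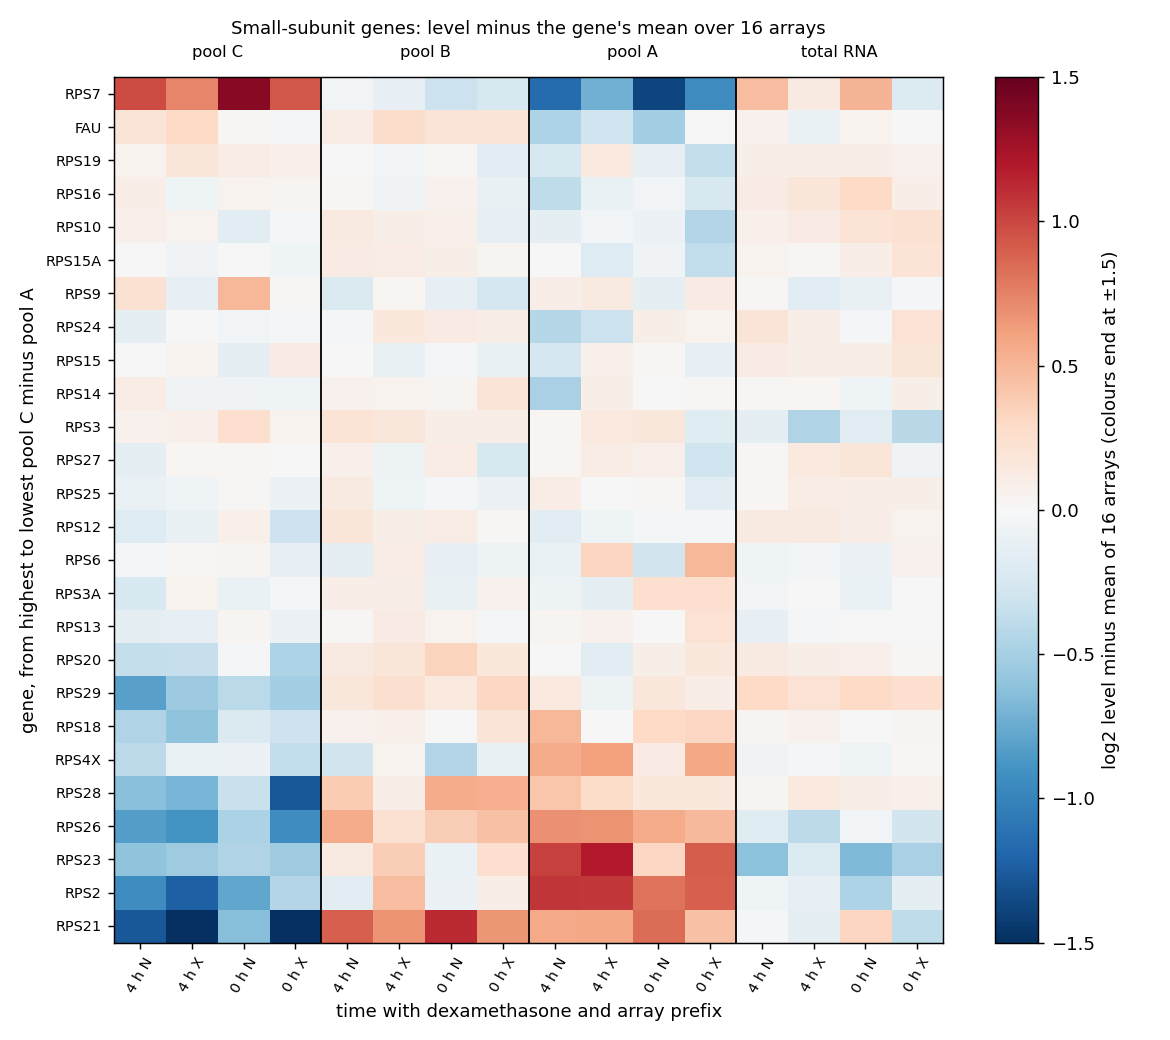
Log2 level of each of the 26 members (rows) on each of the 16 arrays (columns, by pool, time and prefix) minus the member's mean over the arrays, with colours ending at 1.5 either way. RPS7 at the top is high in pool C and low in pool A, the bottom rows from RPS20 to RPS21 are low in pool C, and 4 h and 0 h columns of a pool look alike.

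The order of the pools differed between members. RPS7 had its highest levels in pool C, then total RNA, then pool B, then pool A, with the ranges of total RNA (11.14 to 11.85) and pool B (11.01 to 11.30) overlapping. RPS2 ran from pool A through pool B (12.93 to 13.55) and total RNA (12.64 to 13.03) to pool C (11.87 to 12.66), and total RNA overlapped both of its neighbours. RPS23 also had pool A highest (9.56 to 10.43) and then pool B (9.15 to 9.62), which overlapped, while total RNA and pool C were lowest and overlapped each other. RPS21, RPS26 and RPS28 were low in pool C and had overlapping ranges in pools A and B.

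Members with several probes allowed a look at the same gene at different brightness. Of 12 such members, 8 had probes that agreed within 0.3 log2 units for pool C minus pool A, and 3 spread by more than 1. All probes of the table were tested together for this. Of the 17269, 11576 (67%) passed the threshold, 4964 of them lower in pool C and the rest higher. Of the 44 member probes 3 were called higher and 15 lower. Both probes of RPS7 gave 2.05 (adjusted p = 6.401e-07 and 3.720e-07, limma). Both probes of RPS4X (-0.71 and -0.59) and of RPS26 (-1.38 and -0.63) were lower in pool C.

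RPS27, a zinc-finger protein of the subunit, had probes that did not move together. Its 2 brightest gave -0.0056 and 0.0033. The third had 11.64 and 11.59 at 4 h and 12.32 and 11.63 at 0 h in pool C, against 14.19 and 14.02 at 4 h and 14.18 and 13.95 at 0 h in pool A, which was 4.89-fold lower (-2.29 ± 0.16, adjusted p = 5.580e-08, limma). RPS15A likewise gave 0.12 and -0.04 at its brighter probes and -1.25 ± 0.16 at its dimmest (adjusted p = 1.356e-05, limma). The 4 probes of RPS29 were all lower in pool C, by 0.66 at the brightest and by 1.17, 2.47 and 3.73 at the next ones in order of brightness. The dimmest RPS29 probe had 6.01 and 6.20 at 4 h and 6.25 and 6.24 at 0 h in pool C, against 9.89 and 10.29 at 4 h and 9.44 and 10.00 at 0 h in pool A.

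The transcript read by each of these probes was not looked up here. Of the 28 member probes with a median intensity of 15000 or more, 1 was called higher and 6 lower, with a median absolute difference of 0.15. Of the 16 dimmer probes, 2 were called higher and 9 lower, with a median of 1.31. Of all 17269 probes, at any brightness, 11576 were called, 4964 of them lower, and shares by brightness were not counted. The bound was chosen after the values were seen, and probes of a gene are not replicates.

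**Figure D4:**
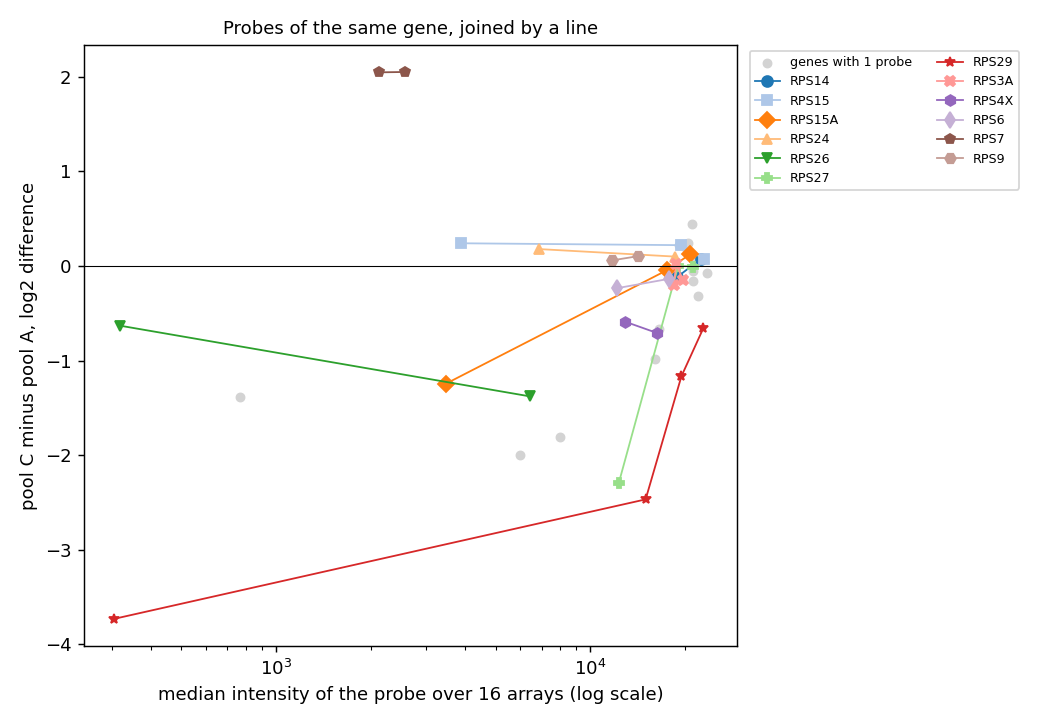
Log2 difference of pool C minus pool A for each of the 44 member probes (vertical axis) against the median intensity of the probe over 16 arrays (horizontal axis, log scale), with probes of a gene joined. The RPS29 and RPS27 lines drop steeply to their dimmer probes, to -3.73 and -2.29, while both RPS7 probes sit at 2.05 and the RPS15 line is nearly level.

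Probes annotated to pseudogenes of the members were kept apart, and whether they also read the parent mRNAs was not tested. The bright probe of RPS26P11 had a difference of -0.26 ± 0.15 between pool C and pool A (adjusted p = 0.148, limma), beside -1.38 for RPS26. The bright probe of RPSAP9 gave 0.17 ± 0.13 (adjusted p = 0.274), and its dim probe, detected on 15 arrays, gave -1.37 ± 0.25 (adjusted p = 2.705e-04, limma). Probes for RPS10P7 and RPSA2 and the second probe of RPS26P11 were detected on no array. RPS27L, a paralogue of RPS27 that p53 is known to induce, had 11.34 and 11.46 at 4 h and 11.74 and 11.35 at 0 h in pool C, against 13.07 and 13.11 at 4 h and 13.29 and 12.95 at 0 h in pool A. It was 3.10-fold lower in pool C on arrays that did not overlap (-1.63 ± 0.14, adjusted p = 2.735e-07, limma).

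The tract at the start was set beside the calls for the 23 tested members with a promoter entry, 17 of which (73.9%) carried it. The calls used were those of quantile normalization. Among the members called lower in pool C against pool A, 3 of 7 carried the tract (42.9%). It was present in 1 of the 2 called higher, FAU, and in 13 of the 14 not called (92.9%). The printed windows of RPS26, RPS29 and RPS4X, all 3 called lower, hold no match within 5 bases of the start. RPS15, whose window is not printed, has no match there either and was not called (0.08, adjusted p = 0.624, limma). The window of RPS21, the lowest member, holds a tract of 15 bases. RPS6, RPS12 and RPS3 carry the tract and were not called here. They were called lower with cyclic loess (-0.62, -0.40 and -0.40) and in the authors' deposited values (-0.58, -0.47 and -0.39). With median scaling they were not called (-0.28, -0.19 and -0.10). Members called lower numbered 21 with cyclic loess, 22 in the deposited values and 8 with median scaling. Tract shares were not counted for those calls. The counts above were read after the calls were known and describe letters at annotated starts only.

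Genes that work with the small subunit did not all follow it. Of 42 tested proteins of the large subunit, 2 were higher and 20 lower in pool C against pool A (median -0.31). Of all genes, 41.1% were higher and 26.7% lower (median 0.23). The large-subunit list was led by RPL23A (-2.59 ± 0.14), RPL37 (-2.14 ± 0.17) and RPL14 (-1.92 ± 0.24). With cyclic loess its split was 0 and 37, beside 34% higher and 32% lower of all genes. In the authors' deposited table it was 1 and 38, beside 46.3% and 19.4%. Of 15 listed genes known to have TOP mRNAs, translation factors among them, 1 was higher and 8 lower (median -0.46). The poly(A)-binding protein PABPC1 (-2.16 ± 0.19) and EIF3H (-1.52 ± 0.14), a subunit of initiation factor eIF3, were lower, and the splicing regulator HNRNPA1 (2.01 ± 0.24) was higher. For these 15 genes median scaling gave 4 higher and 5 lower, and for the large subunit 2 and 21. With that scaling 68% of all genes were higher and 12.3% lower. In the authors' deposited table the 15 genes split into 2 higher and 10 lower.

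Genes of the mitochondrial small subunit, which builds a separate ribosome inside mitochondria, were higher in 15 and lower in 4 of 29 (median 0.44). The calls of all genes leaned the same way, with 41.1% higher and 26.7% lower (median 0.23). Among the 29, MRPS34 stood at 2.17 ± 0.19, MRPS23 at 1.82 ± 0.15 and MRPS25 at -1.49 ± 0.18. Factors that assemble the small subunit in the nucleolus were higher in 17 and lower in 6 of 32 (median 0.46), with NOC4L at 1.63 ± 0.22, KRR1 at 1.56 ± 0.17 and the box C/D protein NOP56 at -2.0 ± 0.18. Cyclic loess gave 14 higher and 4 lower for the first list and 16 and 6 for the second, beside 34% and 32% of all genes. The authors' deposited table gave 23 and 3, and 20 and 1, beside 46.3% and 19.4%. Median scaling gave 26 and 0, and 27 and 1, beside 68% and 12.3%. The lists were compared with the members by counts and medians only.

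**Figure D5:**
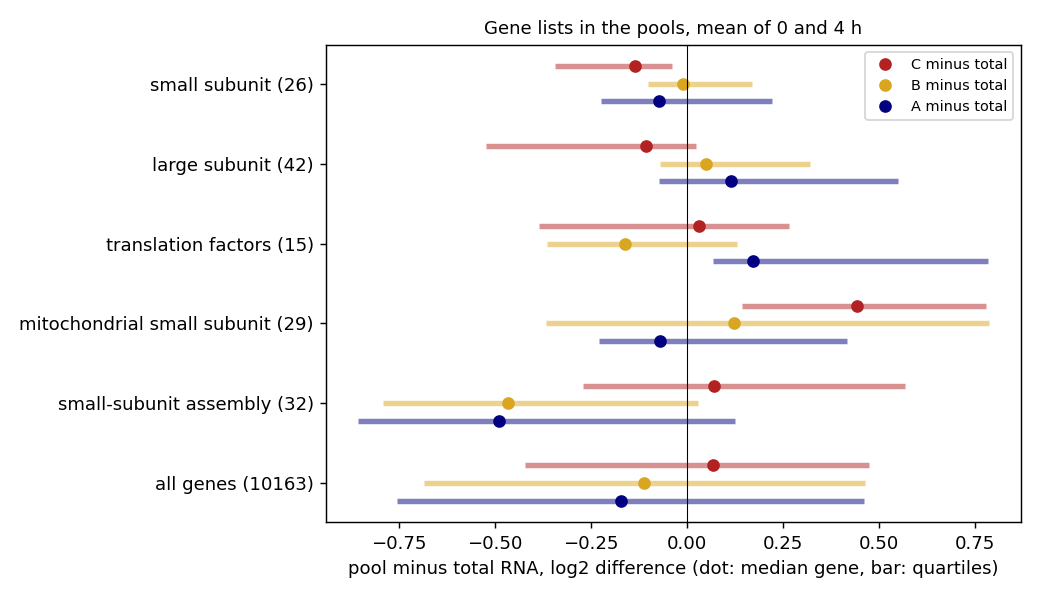
Median (dot) and quartiles (bar) of the log2 difference of pool C, pool B and pool A minus total RNA, averaged over both times, for the small-subunit genes, 4 other lists and all genes, with the number of genes tested in brackets. The small-subunit medians are -0.13 for pool C, -0.0090 for pool B and -0.07 for pool A, and the mitochondrial list stands highest in pool C, at 0.44.

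The list of regulators of TOP mRNAs was short, with 6 of its 7 genes tested. In pool C against pool A, 1 was higher and 2 lower, beside 41.1% higher and 26.7% lower of all genes and 67.9% in all. The lower ones were the S6 kinase RPS6KB2 (-2.02 ± 0.20, adjusted p = 8.253e-07) and MTOR (-1.23 ± 0.19, adjusted p = 5.980e-05, limma). With dexamethasone 0 of the 6 passed the threshold in any kind of RNA, as with the members. DDIT4, an inhibitor of mTORC1 that glucocorticoids are known to induce, had a difference of 2.40 ± 1.10 in total RNA (adjusted p = 0.9998, limma). Its differences were 1.76 in pool A, 1.90 in pool B and 2.51 in pool C, each ± 1.10. DDIT4 thus stood higher at 4 h in every kind of RNA, unlike the member medians, without passing the threshold. Its standard error was the largest of all genes tested, where the median of the list was 0.27.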

How the data were processed

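Per the labels, total RNA and 3 polysome pools of MM1.S cells, at 4 and 0 h with dexamethasone, were biotin-labelled after amplification and hybridized to 16 arrays. The deposited non-normalized table gives, per the file headers, an intensity on a linear scale with its detection p-value, for every probe on every array. The authors' deposited value table holds log2 values; the scale and direction were read from the values, and its normalization and any centring stay unknown. The medians of its columns, replicate 1 then 2, were 7.267 and 7.297 (4 h) and 7.237 and 7.298 (0 h) in pool C, 7.259 and 7.342 (4 h) and 7.285 and 7.305 (0 h) in pool B, 7.311 and 7.409 (4 h) and 7.336 and 7.348 (0 h) in pool A, and 7.21 and 7.21 (4 h) and 7.21 and 7.211 (0 h) in total RNA. No source used here states the scanner software or what the prefixes N and X mean.

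Intensities were background-corrected (limma's nec, offset 16, on detection p-values), quantile-normalized and log2-transformed (limma 3.58.1 under R 4.3.3). Of 47323 probes, 17269 with a detection p-value under 0.01 on at least 2 arrays were kept. Gene symbols came from the platform annotation, with 30121 annotated probes, 30113 of them with 1 symbol, of which current symbols were found for 30074. Each of 10163 genes was represented by its brightest kept probe on average. One mean per group was fitted (limma, 8 residual and 5.36 prior degrees of freedom), and p-values of each of the 11 comparisons were adjusted over all genes (Benjamini-Hochberg, threshold 0.05). Errors are standard errors from limma. Folds of dim probes are understated and those near the brightest signals may be compressed, and the number of arrays limits the precision. The method was tested on simulated data.

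The members and lists were chosen with earlier results of these data known. By the rule for names, members past the threshold were eligible (up to 8 each way by size, or the 3 largest as values where fewer passed), with RPS3, RPS6, RPS27, FAU, the dimmest and brightest members and those with several probes, and up to 3 genes of any other list. Promoter windows came from RefSeq (GRCh38.p14), which matched 25 of the 28 members. Alternatives were scaling, background correction, filter, probe choice, the arrays in the fit, a replicate block, the deposited values and leaving out arrays.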

Additional observations from a re-analysis of the deposited data

How the results depend on the processing

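Of the 46 calls named between kinds of RNA, omitting background correction, the filter for detection on all 16 arrays, the mean of the kept probes and a block for the prefix kept all 46. The number kept was 35 with median scaling, 40 with cyclic loess, 38 in the authors' deposited table, 45 with no detection filter, 44 in fits on only the groups compared and 37 without the 4 untreated X arrays. Signs turned for RPS26 in pool C against total RNA (0.0040 with median scaling), RPS23 in pool C against pool B (0.2077 with median scaling, 0.0661 in the deposited table) and FAU in pool C against pool A (-0.0607 with cyclic loess, -0.0842 in the deposited table). In the deposited table RPS10 (0.1035) and RPS16 (0.1426) turned in pool A against total RNA. These signs were the same with the table's replicate block. The cause was not tested.

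The member median moved as follows. Median scaling gave, for 4 h against 0 h, -0.0649 in total RNA, -0.0926 in pool A, -0.0880 in pool B and 0.0240 in pool C. Beside these stood -0.0375, 0.2206, -0.1239 and 0.0508 over all genes in that order. Median scaling gave 0.1429 for the difference of responses. Its values were 0.1306 for pool B against total RNA, -0.1775 for pool C against total RNA, -0.1882 for pool C against pool A and -0.2674 for pool C against pool B. Cyclic loess gave -0.2133, 0.0019 and -0.0021 for 4 h against 0 h in pools A, B and C, and 0.2514 for the difference of responses. Against total RNA it gave 0.0908 for pool A, -0.0495 for pool B and -0.3737 for pool C (15 called), and further -0.2316 for pool B against pool A, -0.5066 for pool C against pool A (22 called) and -0.2539 for pool C against pool B. The deposited table, with or without its replicate block, gave 0.1270 and -0.0089 for 4 h against 0 h in pools A and B, and -0.1708 for the difference of responses. Against total RNA it gave 0.2701 for pool A (13 called), 0.0473 for pool B and -0.1826 for pool C, and further -0.3149 for pool B against pool A (11 called), -0.4883 for pool C against pool A (23 called, 24 with the replicate block) and -0.1824 for pool C against pool B. With that block 1 member was called for 4 h in pool A. The mean of the kept probes gave -0.0317 and -0.0935 for 4 h against 0 h in pools A and C and -0.1576 for the difference of responses. It gave 0.0918 and 0.0623 for pools A and B against total RNA, -0.1301 for pool C against pool A, -0.2026 for pool C against pool B and 9 called in pool B against pool A. Without background correction 13 were called in pool A against total RNA. Shares of all genes called were not counted for the mean of the kept probes, the fit without background correction or the replicate block. In the main fit the shares were 61.6% for pool A against total RNA, 42% for pool B against pool A and 67.9% for pool C against pool A. For 4 h in pool A the share there was 0.876%. Without the 4 untreated X arrays, chosen after seeing the data, medians were -0.0036 and -0.1365 for 4 h in pools A and C and 0.0540 for pool B against pool A.

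Leaving out 1 array gave medians of -0.0036 to 0.0982 and -0.1365 to 0.0246 for 4 h in pools A and C, -0.185 to -0.0579 for the difference of responses, -0.0774 to -0.0211 for pool A against total RNA (5 to 8 called), 0.0305 to 0.1455 for pool B against pool A and -0.1 to -0.0098 for pool C against pool A.

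Deviations of arrays with the same prefix, N or X, from their group means correlated at -0.076 to 0.403 over 28 pairs of groups (median 0.246), 27 of them over 0.1 and 1 not. Arrays of a prefix thus tended to deviate together, but no label says what the prefix marks, and the fits were made without it as a block. With the prefix as a replicate block, pool A against total RNA had 6 higher and 5 lower members. The share of all genes called was not counted with that block, and in the main fit it was 61.6%. Of the 26 members, 20 had a median intensity over 50% of the brightest probe on an array, and what this does to their differences was not tested. The 2 arrays a group limit the precision of each difference.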
